A study of Mus musculus with 12 samples.

Results

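The 51 mouse genes described here encode the semaphorins, plexins, Eph receptors and ephrins, families of ligands and receptors that guide axons. They were taken from the gene models deposited with an RNA-seq study of the nucleus accumbens (NAc), by a rule on the gene name: Sema followed by a digit, or Plxna to Plxnd, Epha, Ephb, Efna or Efnb followed by a digit. They made up 51 of 35912 genes by name, or of 22507 genes with a coding transcript, and held 234 of 87740 transcripts. There were 28 ligand genes and 23 receptor genes, each at 1 locus.

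The study compared C57BL/6 mice under 4 conditions, with 3 pools of NAc in each and 12 in all. The repeated cocaine pools came from mice given 20 mg/kg cocaine intraperitoneally on 7 days, and their control pools from mice given saline for the same 1 week. The acute cocaine pools came from mice given saline on 6 days and then 20 mg/kg cocaine on 1 day, and their control pools from mice given saline for 1 week. By the labels a pool was made of 3 to 5 animals of 8 to 10 weeks, while the study's methods give 1 pool size and 1 age within these ranges and name male mice of the substrain C57BL/6 J. Tissue was taken 24 h after the last injection. The file analysed here lists exons only, and its score column held a value on 0 lines. No level, depth or cell type marker of any pool could be read from it, and no comparison of cocaine with saline was made. All 234 transcripts carried the code for a match of their introns with those of a reference transcript. A model listed here is thus a model of the reference, whether or not the NAc uses it.

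Semaphorins signal through plexins, receptors that cross the membrane once and whose cytoplasmic part acts on small GTPases. The class 3 semaphorins are secreted and also use neuropilins as co-receptors, while most other mouse semaphorins are held in the membrane. Eph receptors are receptor tyrosine kinases, and their ligands sit on the neighbouring cell, the ephrin-A proteins on a lipid anchor and the ephrin-B proteins with a membrane-spanning segment. Both families are known for repelling or attracting growing axons, and in the adult brain they also act at synapses and dendritic spines.

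The families differed in how many models they carried. The 51 genes had a median of 3 transcripts (mean 4.59 ± 3.73, SD over genes), and all 22507 coding genes had a median of 2 (mean 3.23 ± 3.23, SD over genes). The median was 5.5 for the 20 semaphorins, 4 for the 9 plexins, 4 for the 14 Eph receptors and 2 for the 8 ephrins. Of the 234 transcripts, 148 had a protein identifier and are called coding here, and 86 (36.8%) had none, against 30.2% over all coding genes. The 86 were classed by the GENCODE M1 annotation of the same genome build, mm9 (NCBIM37). They were 43 transcripts with a retained intron, 37 other processed transcripts and 6 targets of nonsense-mediated decay. Over all coding genes, 21924 transcripts had no protein identifier. Of these, 47.7% had a retained intron, 49.1% were other processed transcripts and 497 were targets of nonsense-mediated decay. Among the coding transcripts, 5 of the 148 were classed as targets of nonsense-mediated decay too, and 2952 of 50689 over all coding genes.

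**Figure D1:**
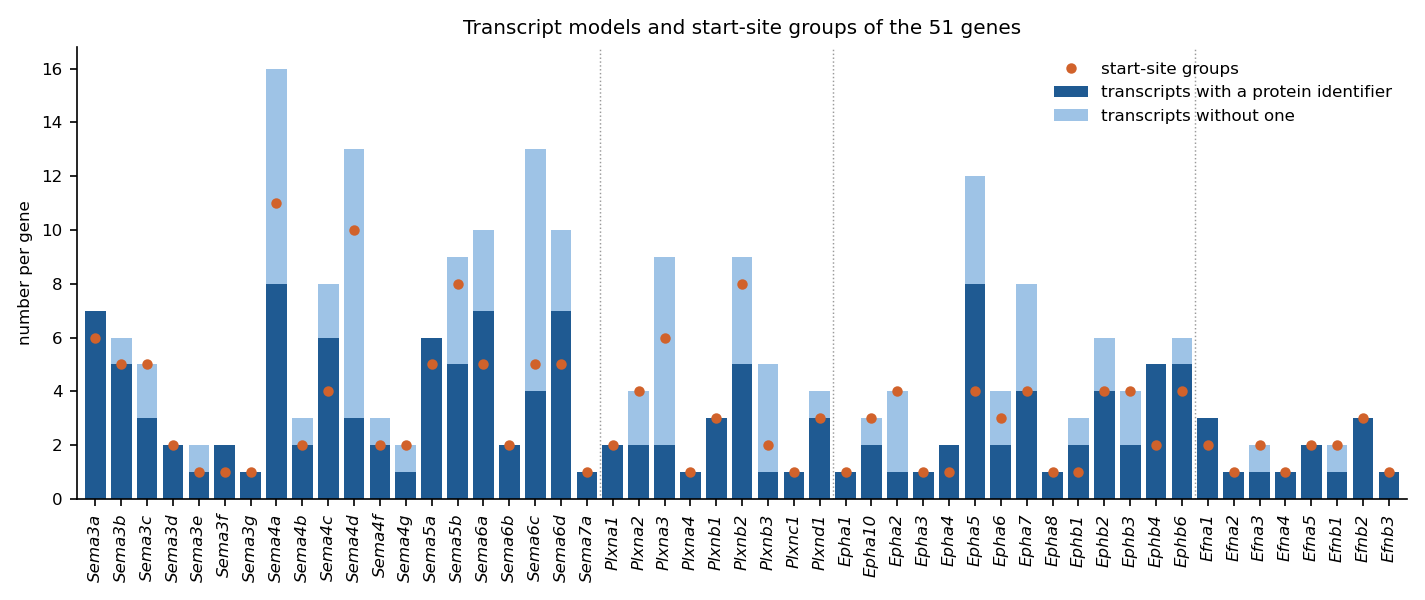
Bars give the number of transcripts of each gene, the dark part those with a protein identifier and the light part those without one, and points give the number of start-site groups. Dotted lines part the semaphorins, plexins, Eph receptors and ephrins; Sema4a stands highest, with 16 transcripts and 11 start-site groups.

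Among the ligands, Sema4a (chr3:88239881-88265104, minus strand of mm9), a membrane-bound semaphorin, had 16 transcripts, 8 of them coding. In all, 0.875% of coding genes had as many or more. Sema4d (chr13:51796615-51889116, minus strand), a ligand of Plxnb1, and Sema6c (chr3:94964379-94977946, plus strand) had 13 each, of which 3 and 4 were coding. Sema6a and Sema6d, ligands of plexin-A receptors, had 10 each. Sema5b had 9, and Sema3a, a secreted repellent, had 7. In the ephrins the most were 3, in Efna1 and Efnb2. Among the receptors, Epha5 (chr5:84486816-84846407, minus strand) had 12, Plxna3 and Plxnb2 had 9 each, Epha7 had 8, Ephb2 and Ephb6 had 6 each, and Plxnd1, the Sema3e receptor, had 4.

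At the other end, 10 of the 51 genes had 1 transcript (19.6%, against 43.0% of all coding genes). These were the ligands Sema3g, Sema7a, Efna2, Efna4 and Efnb3 and the receptors Plxna4, Plxnc1, Epha1, Epha3 and Epha8. Sema7a, which is held on a lipid anchor, and Plxnc1, its plexin receptor, both had this 1 model. These genes were of unequal length: Plxna4 covered 444 kb with 32 exons, Epha3 covered 321 kb with 17 exons, and Efnb3 covered 6.11 kb with 5 exons.

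The deposited models put transcripts that begin at or near the same base into a start-site group. Of the 51 genes, 37 (72.5%) had 2 or more such groups, and the share over all coding genes was 43.7%. The share was 80.0% of semaphorins, 62.5% of ephrins, 77.8% of plexins and 64.3% of Eph receptors. Counting only groups that hold a coding transcript, 29 of the 51 genes (56.9%) had 2 or more, against 31.9% of all coding genes. By protein identifier, 31 of the 51 (60.8%) had 2 or more, against 45.0%. The same models gave 62.5% with 2 or more start-site groups and 78.1% with 2 or more protein identifiers for 32 other guidance genes (neuropilins, netrins, Slits, Robos and others). The 51 genes were larger than coding genes in general. Their largest exon number per gene had a median of 17, against 7 over all coding genes, and their median span was 29 kb, against 15 kb. Whether this size goes with the shares set beside all coding genes was not tested.

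**Figure D2:**
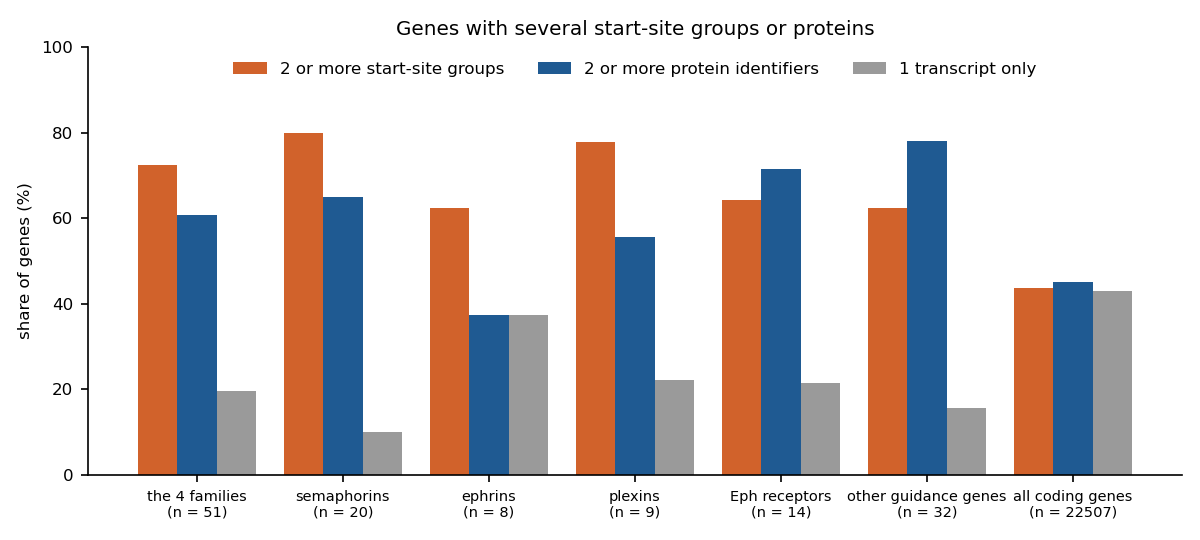
Bars give the share of genes, in percent, with 2 or more start-site groups, with 2 or more protein identifiers and with 1 transcript only, for the 51 genes, their 4 classes, 32 other guidance genes and all 22507 coding genes. The first share is 72.5% for the 51 genes and 43.7% for all coding genes.

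A coding transcript was called truncated where it overlapped the gene's model with the most introns and lay short of at least 3 of those introns at its 3′ or 5′ end. By this rule 18 of the 51 genes (35.3%) had a truncated model, and the share over all coding genes, those with too few introns included, was 19.2%. With both a start and a stop codon required, the shares were 19.6% and 8.78%. Of the 28 ligand genes, 9 (32.1%) had a truncated model, 25 models in all. Of these 25, 12 had both a start and a stop codon in GENCODE M1 and 13 did not. All 9 were semaphorins: Sema3a, Sema3c, Sema3d, Sema4a, Sema4c, Sema5a, Sema5b, Sema6a and Sema6d. The incomplete ones had 17 to 447 residues. Sema5a-204 (chr15:32174583-32348063, plus strand) had 5 exons and missed 19 of 22 introns, with 50 residues. Sema5b-006 (chr16:35661391-35663400, plus strand), with 5 exons and 217 residues, missed 18 of 22, Sema3a-004 (chr5:13398688-13451207, plus strand) and Sema3a-005 had 3 exons and missed 15 of 17, with 72 and 62 residues, and Sema6a-010, with 5 exons, missed 15 of 19. Sema4a-010 (chr3:88258687-88260358, minus strand) and Sema4c-004 (chr1:36612777-36615095, minus strand) missed 13 introns each, and Sema3c-005 missed 10.

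Complete but short frames were found in secreted semaphorins. The longest Sema3a model encoded 772 residues, whereas Sema3a-201 encoded 257 and Sema3a-202 encoded 170, of which 223 and 151 were the first residues of the long protein. Sema3d-202 encoded 403 residues, the first 397 shared with the 777 of Sema3d-201. Sema3c-003 encoded 42 residues and is a target of nonsense-mediated decay in GENCODE M1. Of 17 complete Sema3 frames, 4 lacked the end of the longest protein.

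Loss of the membrane anchor was seen in 3 genes of the membrane-bound ligands. Of 46 complete frames of Sema4, Sema5, Sema6 and ephrin-B genes, 4 did not contain the membrane-spanning segment predicted in the longest protein. Sema4b-002 held the first 550 of 823 residues and Sema4f-002 the first 554 of 777, each ending before the segment at residue 705 and 669. Sema5a-203 held the first 840 of 1078 residues and ended before the segment at residue 975. Sema5a-206 began inside the gene, held residues 510 to 840 of the same protein, and ended in the same way. The coding bases that only these shorter Sema5a models hold are shown because both models have the same ones (chr15:32607513-32607527 on the plus strand of mm9, stop codon in capitals):
Sema5a-203: cccgctcccaagTAA
Sema5a-206: cccgctcccaagTAA
In Efnb2 the complete frames differed at their end and kept the segment. The longest model, Efnb2-201, encoded 386 residues and served as the reference by its length alone. Efnb2-001 encoded 336, of which the first 322 were shared and the last 14 were its own (chr8:8620588-8620632, minus strand), and both kept the segment at residue 234:
Efnb2-001: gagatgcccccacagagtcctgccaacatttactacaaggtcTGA

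A late start did not always shorten the protein. In Sema6d (chr2:123915705-124493506, plus strand), 6 of 7 coding models belonged to groups whose first bases lay 520327 and 520604 bases downstream of that of Sema6d-001, after 4 of its 20 introns. All 7 used 1 start codon and kept the first residue of the longest protein, so that the 6 models counted as truncated by their introns had whole frames of 998 to 1073 residues. In Efna1, an ephrin of the A class, the shorter protein came from the upstream start. Efna1-002 began 1497 bases upstream of the group of the full-length Efna1-001, used a later start codon and held residues 64 to 205 of 205.

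Of the 23 receptor genes, 9 (39.1%) had a 3′-truncated coding model, 11 models in all, and 5 (21.7%) had a 5′-truncated one, 6 models in all. The shares over all coding genes, those with too few introns included, were 15.8% and 8.28%. The 9 were Epha5, Epha6, Epha7, Epha10, Ephb2, Ephb6, Plxna2, Plxnb1 and Plxnd1, and the 5 were Epha6, Ephb2, Ephb6, Plxna2 and Plxnd1. Of the 12 models concerned, 5 had a start and a stop codon. Requiring both codons, an alternative chosen after seeing the data, left 5 genes with a 3′-truncated model and 1 with a 5′-truncated one, all Eph receptors. The plexin models that missed the most introns were incomplete. Plxnb1-002 (chr9:108998466-109003012, plus strand) and Plxnb1-003, of the Sema4d receptor, had 3 exons each, missed 35 of 37 introns and encoded 140 residues with no stop codon. Plxnd1-002 (chr6:115916981-115919444, minus strand) had 7 exons, missed 29 of 35 introns and had neither codon, and Plxna2-004 (chr1:196590761-196612822, plus strand) had 5 exons, missed 28 of 31 and had no start codon. In the Eph receptors, Ephb6-004 (chr6:41569942-41570506, plus strand) with 2 exons missed 16 of 17 introns, Ephb6-003 with 5 exons missed 13, and Ephb2-004 (chr4:136217378-136249955, minus strand) with 6 exons missed 10 of 15, each without a start codon. Plxna2-004 and Ephb6-003 are targets of nonsense-mediated decay in GENCODE M1.

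The Eph receptors held models that keep the membrane-spanning segment and lose the kinase. The segment was predicted in the longest protein of all 14 Eph genes, and the conserved catalytic loop motif (histidine, arginine, aspartate, leucine, alanine) was found in the longest protein of 12. It was not found in Epha10 and Ephb6, receptors known as kinase-inactive. Of 36 complete Eph frames, 33 kept the segment, among them that of Ephb4-004, a target of nonsense-mediated decay in GENCODE M1. Leaving aside Ephb6, 4 of the 33 lacked the loop found in the longest protein of their gene: Epha5-201, Epha5-202, Epha7-002 and Epha7-003. Only the loop was searched, so that a model that keeps it may still lack other residues of the kinase. Epha4-202 lacked residues 783 to 832, after the loop at 744. The residues that Epha6-003 shared ended at 928, after the loop at 890. Another 3 complete frames lacked the segment: Epha10-001, Ephb6-202 and Ephb3-002, which is a target of nonsense-mediated decay in GENCODE M1 and shares 0 residues with the longest Ephb3 protein.

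Epha7 (chr4:28740281-28894649, plus strand), a receptor for ephrin-A ligands for which receptors without a kinase are known in the mouse brain, had 8 transcripts and 4 coding models. Epha7-001 encoded 998 residues, with the segment at residues 555 to 573 and the catalytic loop at 756. Epha7-002 encoded 610 residues and Epha7-003 encoded 626. Both shared residues 1 to 600 with the long protein, so that each kept the segment and had a short tail of its own, of 10 and 26 residues. The intron rule found only Epha7-002, which misses 7 of 16 introns, because the last exon of Epha7-003 lies within the last exon of the long model. The coding bases of the tails show how soon each frame stops after leaving that of the long model (mm9, chr4:28873371-28873403 and chr4:28893675-28893755, plus strand, stop codon in capitals):
Epha7-002: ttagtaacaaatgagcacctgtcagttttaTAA
Epha7-003: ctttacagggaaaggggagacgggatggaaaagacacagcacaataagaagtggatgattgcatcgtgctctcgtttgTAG
Epha7-004 differed from Epha7-001 by 12 bases at an acceptor, which removed 4 residues between the segment and the loop, from residue 600 on, and kept the loop.

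Epha5, another receptor for ephrin-A ligands, had 8 coding models with 8 protein identifiers. The longest, Epha5-006, encoded 1040 residues, with the segment at residues 575 to 593 and the loop at 801. Epha5-201 encoded 681 residues, shared 641 with the long protein up to residue 663, and had a tail of 40 residues from an exon within the last intron of the long model. Epha5-202 encoded 536 residues, shared 502 up to residue 645, and had 34 of its own, 26 of them in its tail. It also lacked the exon of residues 358 to 470, before the segment. Both models lacked the exon of residues 600 to 622, after the segment. Exons of Epha5-202 differ between the deposited models and GENCODE M1, but its frame lay within the deposited exons, as did those of all 148 coding models. The coding bases of both tails are given for the same reason as those of Epha7 (chr5:84494883-84495005 and chr5:84536931-84537011, minus strand):
Epha5-201: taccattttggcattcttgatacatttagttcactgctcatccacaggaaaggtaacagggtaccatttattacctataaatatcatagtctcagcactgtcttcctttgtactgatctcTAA
Epha5-202: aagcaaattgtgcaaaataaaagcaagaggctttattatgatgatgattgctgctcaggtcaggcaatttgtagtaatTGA
The models Epha5-002, Epha5-008 and Epha5-010 kept the kinase loop and ended at residue 1006 of 1040.

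Epha6 (chr16:59653309-60605357, minus strand) had a short model that lacked both ends. Epha6-001 encoded 1130 residues, and Epha6-003 had 296, of which 294 were residues 635 to 928 of the long protein. It missed 5 introns at the 5′ end and 3 at the 3′ end, lacked all but the last few residues before the segment, and held both the segment at residue 642 and the loop at 890. Its start lay 599527 bases downstream of that of Epha6-001. Epha10-001 (chr4:124558143-124564174, plus strand) encoded 292 residues and missed 13 of 14 introns, and 138 of its residues were the first of Epha10-002. The longer Epha10-002 had no start codon, so that its 861 residues are a lower limit. Ephb6-202 held residues 17 to 331 of 1014.

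Of 14 complete plexin frames, 13 kept the predicted membrane-spanning segment. The other was Plxnb2-203, of a receptor for Sema4 ligands, with 615 residues of which the first 608 were those of the 1842-residue protein. It ended before the segment at residue 1203. The last of its 10 exons lies within the last exon of the long models, so that the intron rule did not find it, and its own coding bases are few (chr15:88986013-88986036, minus strand, stop codon in capitals):
Plxnb2-203: acccaccctttttgtaaatcgTGA
Plxnb2-202 began later, at residue 262, and encoded 1432 residues with the segment. It shared 1429 with the long protein, fewer than lie from 262 to 1842, so that residues inside that stretch were missing too. Plxna3-201, with no start codon, covered residues 1276 to 1872, which lie after the segment.

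**Figure D3:**
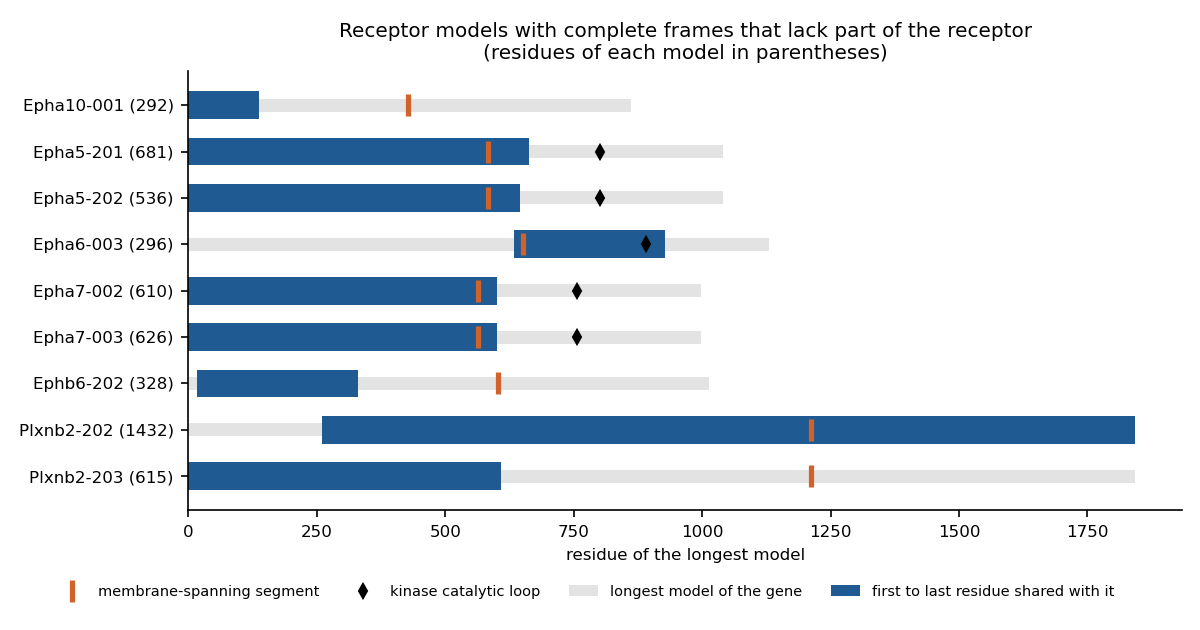
Each row is a receptor model with a start and a stop codon that lacks the first residue, the membrane-spanning segment or the kinase loop of the longest model of its gene. Grey bars give the length of that longest model in residues, blue bars run from the first to the last residue shared with it, orange marks stand at the segment and diamonds at the kinase loop. Epha5-201, Epha5-202, Epha7-002 and Epha7-003 end between the 2 marks. Ephb3-002, which shares 0 residues with its longest model, is not drawn.

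Besides these ends, whole exons were skipped within the frame. Of 22 cassette exons, 17 lay within a reading frame between complete frames of the same gene, in 11 genes. The 17 include 1 Sema6d exon counted with both of its donors, at 168 and 156 bases. All 17 were a multiple of 3 bases long (51 to 336 bases, median 120). A frame that runs on past a skipped exon mostly requires this, so that it is not a separate result. All 17 were flanked by AG and GT. Where the longest protein had a predicted hydrophobic segment, 12 of the exons lay before it, 4 after it and 0 across it. The 4 after it were all in Eph receptors, in Epha4 (150 bases), Epha5 (66 bases), Ephb1 (123 bases) and Ephb4 (156 bases). The semaphorins of class 6 had 7 of the 17, all before the segment. In Sema6d, 57 bases encoded residues 570 to 589, and 168 or 156 bases followed them. 4 of the shorter exons are shown in capitals with 10 intron bases on either side, since each adds or removes a stretch of the protein without changing the frame (chr2:124486441-124486497 on the plus strand, chr5:84546586-84546651, chr3:89076879-89076944 and chr17:62962665-62962745 on the minus strand, coordinates of the exon):
Sema6d exon: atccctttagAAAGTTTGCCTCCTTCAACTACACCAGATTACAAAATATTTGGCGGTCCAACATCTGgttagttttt
Epha5 exon: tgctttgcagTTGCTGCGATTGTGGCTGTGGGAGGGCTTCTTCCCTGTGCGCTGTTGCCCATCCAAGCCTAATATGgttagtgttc
Efna1 exon: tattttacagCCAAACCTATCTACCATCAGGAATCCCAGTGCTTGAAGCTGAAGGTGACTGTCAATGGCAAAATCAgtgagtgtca
Efna5 exon: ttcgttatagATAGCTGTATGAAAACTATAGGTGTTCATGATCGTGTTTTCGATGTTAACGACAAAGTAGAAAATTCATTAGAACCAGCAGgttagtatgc
The Epha5 exon encodes residues 600 to 622, between the segment and the kinase loop. The Efna1 and Efna5 exons encode residues 130 to 152 and 162 to 189, before the hydrophobic end of the proteins, and the models without them, Efna1-003 and Efna5-002, have 183 and 201 residues.

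The shortest shifts were acceptors 3 bases apart. There were 5 of these in 4 genes, Sema4c, Sema5b, Epha5 and Ephb2, and 4 of the 5 lay within the frame and added or removed 3 coding bases. At all 5, both acceptors ended in AG. Ephb2, a receptor for ephrin-B ligands, had 2 of them, and its models Ephb2-001, Ephb2-002 and Ephb2-003 encoded 986, 987 and 987 residues. The 4 within the frame are shown with 20 intron bases before the 3 bases, which are in capitals, and 15 bases after them (chr4:136228408-136228445, chr4:136231431-136231468 and chr5:84571391-84571428 on the minus strand, chr16:35661632-35661669 on the plus strand):
Ephb2-003: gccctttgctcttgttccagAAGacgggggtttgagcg
Ephb2-002: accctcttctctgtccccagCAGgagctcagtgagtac
Epha5-001: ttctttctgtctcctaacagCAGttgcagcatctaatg
Sema5b-001: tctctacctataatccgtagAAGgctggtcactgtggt
Ephb4, the receptor for Efnb2, had an acceptor shift of 27 bases that added 9 residues before the segment in Ephb4-002.

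The 164 start-site groups were then placed against the model with the most introns in each gene. Of these, 51 held that model, 15 lay upstream of its first base, 14 in its first exon, 16 in its first intron, 35 in a later exon and 33 in a later intron. A coding transcript was held by 107 groups. The other 57 were mostly internal: 21 began in a later exon and 26 in a later intron. Sema4d had 10 groups, of which 2 held a coding transcript, and Plxna3 had 6, of which 1 did. Sema4a had 11 groups and 6 with a coding transcript, and its 4 upstream groups lay at -697 to -5443 bases from the reference model.

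**Figure D4:**
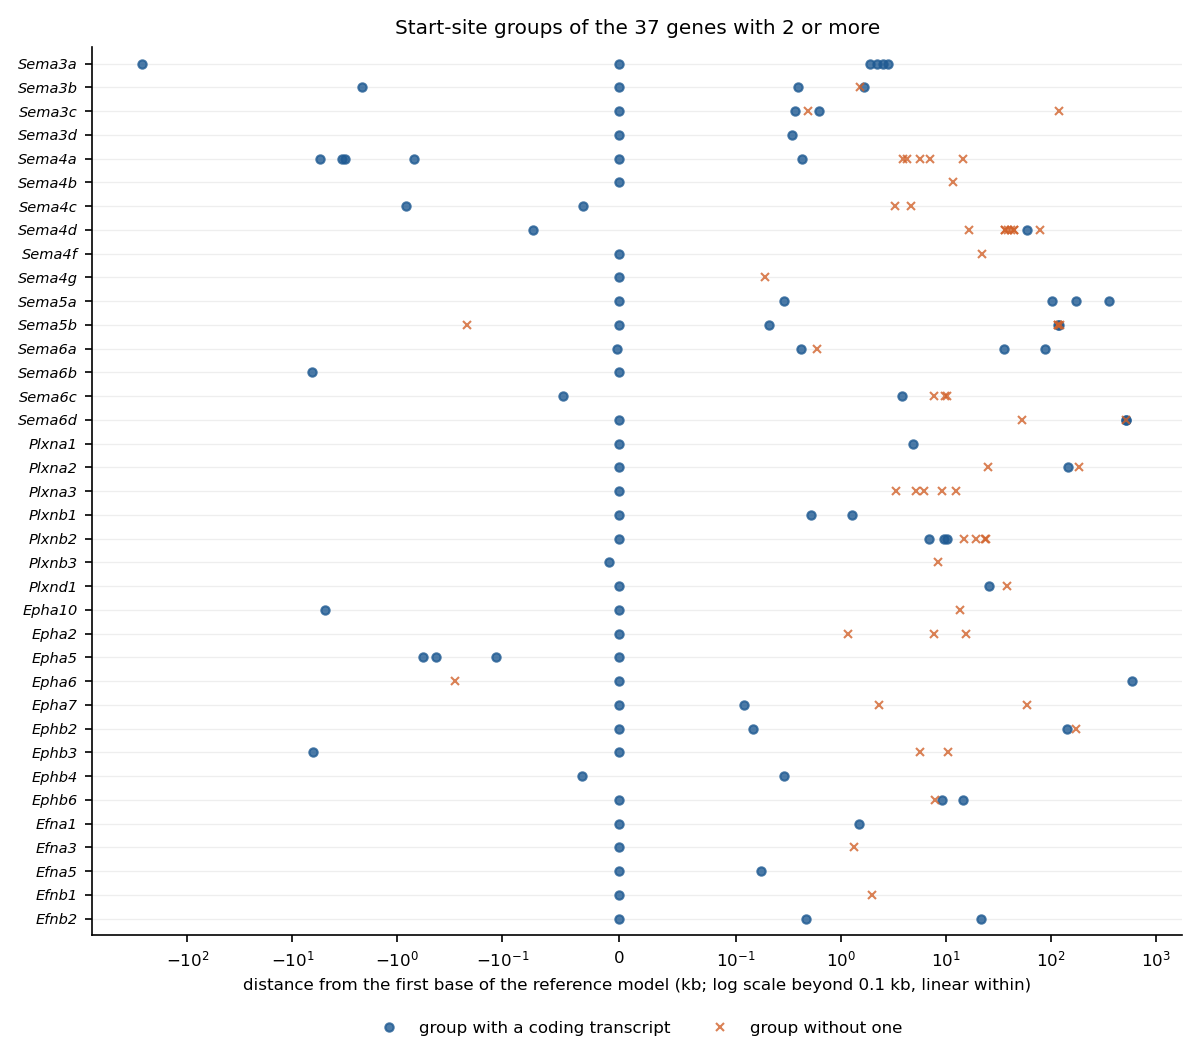
Each row is 1 of the 37 genes with 2 or more start-site groups, and each mark is a group, placed by its distance in kb from the first base of the gene's model with the most introns (negative values lie upstream; the axis is linear within 0.1 kb and logarithmic beyond). Circles hold a coding transcript and crosses do not. Epha6 and Sema6d have coding starts 600 and 521 kb apart.

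The largest distances between the outermost coding starts were 600 kb in Epha6, 521 kb in Sema6d, 357 kb in Sema5a, 274 kb in Sema3a and 145 kb in Plxna2. In Plxna2 the far start belonged to the incomplete Plxna2-004. In Sema3a it lay upstream, at the start of the short Sema3a-201, at -271191 bases from the reference model. Of the 24 genes with 2 or more start-site groups that hold a complete frame, 18 used 1 start codon throughout and 6 used more than 1. The 6 were Sema4a, Sema5a, Plxnb2, Epha6, Efna1 and, through its decay target Ephb3-002, Ephb3. In Sema4a the later codon was that of Sema4a-002, which lies in the same start-site group as the full-length Sema4a-001. In 12 of the 24 the same protein was reached from several groups, and in 5 (Sema3b, Sema4c, Sema4d, Sema6b and Plxna1) there was 1 protein only. Sema3b, a secreted semaphorin, reached its 749 residues from 4 groups within 3.83 kb, and Plxna1, a Sema3 receptor, its 1894 residues from 2 groups 4.9 kb apart.

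The sequence around the coding starts was read from 250 bases before to 50 after the first base of a group, which is where its most upstream coding transcript begins. CpG dinucleotides are scarce in the mouse genome except at many promoters, and a window with over 50% GC and a CpG count over 0.6 of that expected from its bases is called CpG-rich here. Of the 107 coding start-site groups, 51 (47.7%) were CpG-rich, against 40.9% of 32150 groups of all coding genes. The medians were 61.3% and 55.7% GC, and 0.62 and 0.51 for CpG observed over expected. The hexamer TATAAA, searched on the gene's strand from 40 to 15 bases before the start, was found at 1 of the 107 (0.935%) and at 1.67% of all. Among groups with a complete frame, 48 of 89 (53.9%) were CpG-rich, and among those with incomplete frames only, 3 of 18 (16.7%). The groups of all coding genes were not split in this way, so that the contrast cannot be called particular to these genes.

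**Figure D5:**
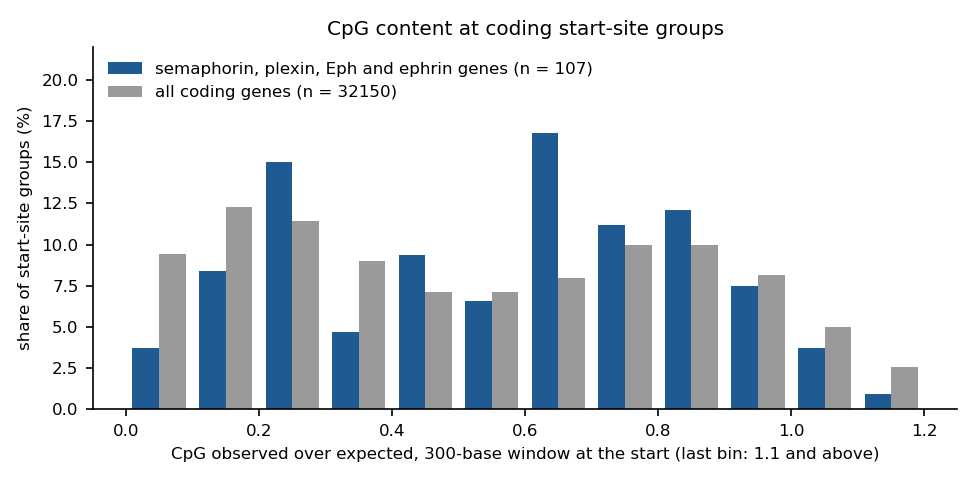
Bars give the share of coding start-site groups, in percent, by CpG observed over expected in the 300-base window at the start, for the 51 genes (blue, 107 groups) and all coding genes (grey, 32150 groups). The medians are 0.62 and 0.51.

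The outermost starts of 1 gene could differ in this respect. In the 24 genes, both outermost groups with complete frames were CpG-rich in 8 (33.3%), only the upstream one in 10 (41.7%), only the downstream one in 4 (16.7%) and neither in 2 (8.33%). Over 5051 coding genes with 2 or more such groups, the shares were 24.4%, 27.2%, 13.9% and 34.5%. The outermost groups lay within 300 bases of each other in 4 of the 24 and in 1161 of the 5051, so that their windows overlapped. The 10 were Sema4d, Sema5a, Sema6a, Sema6b, Sema6c, Plxna1, Plxnb2, Epha5, Epha6 and Ephb3 (again through Ephb3-002), and the 2 were Sema3b and Sema4a. In Plxna1 the upstream start had 77.7% GC and a CpG ratio of 0.95, and the downstream one 53.0% and 0.24. In Sema4d the values were 64.0% and 0.84 upstream, and 47.7% and 0.06 at the start 58910 bases downstream of the reference model. The upstream window of Sema4d held 10 CpG, fewer than the 18 at the start of Plxna3, which was not CpG-rich by this rule. In Epha6, the start of the full-length Epha6-001 had 64.3% and 0.62, and that of the short Epha6-003 had 41.7% and 0.24. All 3 coding groups of Sema6d were CpG-rich, with ratios of 0.66, 0.90 and 0.68. The 100 bases before the starts of Sema4d and Plxnb2, a ligand and a receptor that reach 1 full-length protein from starts of both kinds, are shown with CpG in capitals. Sema4d-002, which begins first in its group, had 5 CpG and Sema4d-003 had 1 (chr13:51889117-51889216 and chr13:51830133-51830232, minus strand of mm9):
Sema4d-002: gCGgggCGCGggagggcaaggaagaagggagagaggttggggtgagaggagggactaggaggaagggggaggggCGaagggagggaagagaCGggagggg
Sema4d-003: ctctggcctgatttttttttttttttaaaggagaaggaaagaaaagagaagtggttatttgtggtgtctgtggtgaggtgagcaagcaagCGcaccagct
In Plxnb2 the start of Plxnb2-204, whose group also holds Plxnb2-203, had 8, that of Plxnb2-201 had 4 and that of Plxnb2-001 had 0 (chr15:89011219-89011318, chr15:89004281-89004380 and chr15:89001551-89001650, minus strand):
Plxnb2-204: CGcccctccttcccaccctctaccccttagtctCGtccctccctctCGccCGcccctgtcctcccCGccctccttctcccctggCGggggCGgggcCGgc
Plxnb2-201: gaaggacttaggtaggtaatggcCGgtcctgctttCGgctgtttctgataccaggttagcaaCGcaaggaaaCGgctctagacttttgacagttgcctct
Plxnb2-001: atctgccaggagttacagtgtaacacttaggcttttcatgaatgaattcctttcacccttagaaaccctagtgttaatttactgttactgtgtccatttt
The 3 full-length Plxnb2 models from these starts, Plxnb2-204, Plxnb2-201 and Plxnb2-001, each encoded 1842 residues.

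The genes lay on 19 chromosomes, with 6 each on chromosomes 5 and 6. Efna1, Efna3 and Efna4, all on the minus strand of chromosome 3, followed each other with no other coding gene between them, 32.8 and 10.4 kb apart. Ephb2 and Epha8 lay 93.4 kb apart on chromosome 4, and Sema3b and Sema3f 72.3 kb apart on chromosome 9, each pair with 3 coding genes between. Exons of 10 of the 51 genes overlapped exons of a locus on the opposite strand, which was coding for Epha1 (with Zyx) and Ephb4 (with Zan). Reads of such stretches cannot be told apart without strand.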

How the data were processed

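RNA was sequenced from 12 pools of mouse NAc in 4 groups. The submitters' processing notes list the tools TopHat, Cufflinks, Cuffdiff and CASAVA with mm9 as the build. No version of these was found in the sources used here. The reference annotation was an Ensembl release on NCBIM37, the same build. The 1 file analysed, as deposited by the authors, is a combined set of gene models on mm9: exon coordinates with locus, transcript, start-site and protein identifiers, and no score. It has 0 columns of values per sample, so that depth, replicate error, tests between groups and leaving out pools do not apply. Labels were used to describe the groups only.

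Genes were taken by name. Transcripts with a protein identifier were called coding. Counts and medians of the 51 genes were set beside those of all coding genes, with no test. The reference model of a gene was its coding transcript with the most introns, and a model missing at least 3 of its introns at an end was called truncated. Reading frames came from GENCODE M1 (all 234 transcripts found, 232 with identical exons) and were translated on mm9. Residues were matched to the longest protein of the gene by genomic position. The membrane-spanning segment was the most hydrophobic window of 19 residues after the first 40, with a mean Kyte-Doolittle value of at least 1.6, and it is a prediction. Sequences were read from the mm9 genome. The members and lists were chosen with earlier results of these data known. Named are, per family, the genes with the most transcripts and start-site groups, the 5 with the largest distance between coding starts, genes with 1 transcript, and those with truncated models. Models named for their frame, exon events, acceptors, promoters or neighbours were chosen after their values were seen. Of the 33 other guidance genes listed, 32 were found. The functions were tested on simulated models, with 8 of 8 checks passed. Python 3.11.15, numpy 2.4.6, pysam 0.24.0 and matplotlib 3.10.9 were used.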

Additional observations from a re-analysis of the deposited data

How the results depend on the processing

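Under the 19 alternatives, 13 values stayed within the spread over genes (medians) or within 1.5 times the count given. The 13 include alternatives that could not move. Grouping by locus and leaving out transcripts with 1 exon changed nothing, as 0 genes had several loci and 0 transcripts had 1 exon. The limit for the medians was also wide, an SD of 3.73 around a median of 3. Counting every transcript of more than 1 exon, rather than coding ones, gave 14 receptor genes with a 3′ truncation and 11 with a 5′ truncation, in place of 9 and 5. Counting 1 missing intron as enough gave 15 ligand genes in place of 9. Counting only frames with a start and a stop codon, an alternative chosen after seeing the data, gave 5 receptor genes with a 3′ truncation, 1 with a 5′ truncation and 5 ligand genes. The median of transcripts was 2 to 3, and the number of genes with 2 or more start-site groups was 29 to 38. No paired analysis was possible because the deposited models hold no value of any pool. What limits the counts is the annotation: they describe reference models, of which 122 of the 148 coding ones (82.4%) have complete frames. The share over all coding genes was 79.7%.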
